A study of Mus musculus with 22 samples.

Results

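The genes of the proteasome were followed across genotype, gradient fraction and tumour origin in RNA-seq of organoids, 3-dimensional epithelial cultures, of the mouse bladder. They were taken by symbol, as the rows named Psma, Psmb, Psmc, Psmd or Psme with a number, leaving out Psmb8, Psmb9 and Psmb10, the catalytic subunits of the immunoproteasome. The rule found 42 genes among the 24421 in the files, and no measured value entered it. The libraries of primary bladder urothelial organoids were KO and WT for Arid1a, a gene of the BAF complex that remodels chromatin, with 3 libraries per genotype of polysome RNA, of subpolysome RNA and of total RNA. Polysome RNA carries several ribosomes and subpolysome RNA carries few or none, as separated on a sucrose gradient. Total RNA of bladder cancer organoids made up 4 further libraries, 2 labelled KO and 2 labelled WT. The sources used here do not say how Arid1a was disrupted, how old the animals were or whether replicates were separate cultures. The p-values therefore measure how far these libraries spread, and part of that spread may be technical.

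The proteasome degrades proteins tagged with ubiquitin. Its core particle is a barrel of stacked rings, with the alpha subunits (Psma genes) at the ends and the beta subunits (Psmb genes) in the middle, and the regulatory particle caps it with a base of ATPases (Psmc genes) and receptors (Psmd1, Psmd2 and Psmd4) and a lid of further Psmd subunits that holds the deubiquitinase Psmd14. Psme1 and Psme2 form an activator ring induced by interferon, Psme3 and Psme4 are nuclear activators, and Nfe2l1 is the transcription factor that raises subunit genes together when proteasome activity falls. The 42 genes held 8 alpha, 8 beta, 6 ATPase, 3 other base, 8 lid and 5 activator genes, 3 chaperones that help to assemble the base (Psmd5, Psmd9 and Psmd10), and Psmc3ip, a meiotic recombination factor that carries the prefix but is not a proteasome subunit. Psma8, the testis form of an alpha subunit, had 2 counts over all 22 libraries, and Psmb11, the thymus form of a catalytic subunit, had 0 to 2 counts in each primary total RNA library. The other 40 genes had at least 57 counts in every library and were tested throughout.

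Core promoters of the subunits are shown because the genes are known to be expressed together and several share a short motif. RefSeq promoter entries on GRCm38.p6, of 300 bases each (250 before and 50 after the start), were matched for 35 of the 42 genes, giving 38 entries. The motif CCGGAAG, the core recognised by ETS factors, was found on either strand in 14 of the 38 entries (36.8%) and in 8.86% of the 32851 entries of the table. It was 1 of 16 motifs searched, and it overlaps 2 others on the list, TTCCGG and GGAAG. The last 80 bases before the start follow for 4 such genes, in lower case with the motif or its reverse complement in capitals.
Psmd2, chr16:20651572-20651651, plus strand: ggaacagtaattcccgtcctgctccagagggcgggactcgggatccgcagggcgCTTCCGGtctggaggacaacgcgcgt
Psmd6, chr14:14120946-14121025, minus strand: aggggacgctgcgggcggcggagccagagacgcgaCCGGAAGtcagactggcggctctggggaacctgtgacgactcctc
Psmd12, chr11:107479448-107479527, plus strand: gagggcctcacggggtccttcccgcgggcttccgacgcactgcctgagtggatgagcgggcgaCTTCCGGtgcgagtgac
Psmc1, chr12:100110122-100110201, plus strand: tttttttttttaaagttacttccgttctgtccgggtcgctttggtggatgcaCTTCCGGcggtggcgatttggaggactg
The antioxidant response core TGACNNNGC, the kind of site bound by Nfe2l1 and Nfe2l2 with small Maf proteins, was found on either strand in 15.8% of the 38 entries and in 12.4% of all entries. It is in capitals in the promoters of the catalytic subunits Psmb5 and Psmb6.
Psmb5, chr14:54617996-54618075, minus strand: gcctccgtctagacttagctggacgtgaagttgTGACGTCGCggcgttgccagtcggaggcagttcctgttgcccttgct
Psmb6, chr11:70525277-70525356, plus strand: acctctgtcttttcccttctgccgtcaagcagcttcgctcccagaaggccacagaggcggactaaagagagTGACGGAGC
A match is a description of these letters and not a measured site.

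The 22 libraries held 39245248 to 76594655 counts each. The tested 40 genes and their 2 near-silent relatives took 0.583% to 0.59% of the counts in KO total RNA and 0.584% to 0.594% in WT total RNA. The label check by Arid1a was met in primary total RNA, where Arid1a had 74.9, 74.7 and 83.8 CPM (counts as a share of the library, scaled by TMM factors over all libraries) in KO organoids and 114, 130.3 and 116 CPM in WT organoids. In polysomes Arid1a had 23.6, 19.3 and 13.9 CPM in KO organoids and 34.6, 24.8 and 21.6 CPM in WT organoids, with overlapping groups and no call (adjusted p = 0.0817). In subpolysomes it had 75.3, 64.3 and 62.4 CPM in KO organoids and 60.3, 62.8 and 55.8 CPM in WT organoids, overlapping and not lower in KO (adjusted p = 0.276), so the check was not met in the gradient libraries, whose genotypes are as labelled. It was not met in the cancer organoids either: Arid1a had 175 and 56.8 CPM in the libraries labelled KO and 66.9 and 196 CPM in those labelled WT, so the labels of these 4 libraries are given as labels throughout. The second library labelled KO of the cancer organoids also stood apart in Ddx3y, a Y-linked gene, with 12 counts where the other 3 had 2578 to 3478. All 10 urothelial markers checked were above 1 CPM (here without TMM factors) in every primary library, against 5 of 10 in every cancer library, where Upk2 and Upk3a were at 0. For 23 of the 42 genes some 50-base stretch of the transcript was shared with another gene, most often a pseudogene, and for Psme2b, Psme2, Psmb5, Psmb3 and Psma5 more than 50 percent of them were, so the reads of these 5 are uncertain.

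In total RNA of primary organoids the proteasome genes lay within narrow bounds between the genotypes. The KO over WT log2 fold changes of the 40 genes had a median of −0.02 and an SD of 0.11, against a median of 0.00259 and an SD of 0.89 over the 13198 genes tested and an SD of 0.42 over the abundant ones, with an average log2 CPM of at least 5. Of the 40, 2 were higher and 5 were lower in KO organoids at an adjusted p under 0.05 in edgeR's quasi-likelihood test, where 27.0% of all genes tested were higher and 26.3% lower. The 95% interval of the log2 fold change lay within 0.5 of 0 for 39 of the 40, against 57.9% of all genes tested. Scaled by library totals instead of TMM factors, 5 were higher and 4 lower, where 3836 and 3172 of the 13198 genes tested were. In a bulk library fewer cells of a type and less RNA per cell cannot be told apart.

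The largest difference was in Psme4, a nuclear activator with 5529 nt of coding sequence, at chr11:30771726-30880361. It had 134, 132 and 131 CPM in KO organoids, against 160.2, 170.3 and 168 CPM in WT organoids. Every KO library lay below every WT library, and the log2 fold change was −0.30 (SE 0.0388, adjusted p = 5.45e-05). Psmd8, a lid subunit at chr7:29174188-29180701, had 244, 242 and 243 CPM in KO organoids and 275, 299.5 and 298 CPM in WT organoids. The groups were again apart, with a log2 fold change of −0.23 (SE 0.0407, adjusted p = 0.00053).

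The other 3 genes that fell were an ATPase, a lid enzyme and an alpha subunit. Psmc6, an ATPase of the base, had 91.8, 89.7 and 86.9 CPM in KO organoids and 106, 98.4 and 109 CPM in WT organoids, a log2 fold change of −0.20 (SE 0.0495, adjusted p = 0.00594). Psmd14, the lid's deubiquitinase, had 94.8, 95.3 and 92.3 CPM in KO organoids and 107, 106 and 106 CPM in WT organoids, a log2 fold change of −0.14 (SE 0.0388, adjusted p = 0.00892). Psma3, an alpha subunit, had 74.8, 75.6 and 70.04 CPM in KO organoids and 83.5, 78.5 and 86.7 CPM in WT organoids, a log2 fold change of −0.15 (SE 0.0518, adjusted p = 0.0332). None of these groups overlapped, but the Psma3 call was lost when KO library 1 or 3 or WT library 1 or 3 was left out, with an adjusted p of 0.0582 to 0.122. In the fit over all 18 primary libraries only Psmd8 and Psme4 of the 7 called genes kept an adjusted p under 0.05, at 0.0484 and 0.0254.

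The 2 genes that rose were small differences as well. Psmc3, another ATPase, had 151, 137 and 144 CPM in KO organoids and 134, 132 and 132 CPM in WT organoids, a log2 fold change of 0.15 (SE 0.0437, adjusted p = 0.0152). Its call was lost without KO library 1 (adjusted p = 0.075) or WT library 3 (adjusted p = 0.0535). Psma6, an alpha subunit, had 135, 137 and 138 CPM in KO organoids and 125, 125 and 130.5 CPM in WT organoids, a log2 fold change of 0.14 (SE 0.0398, adjusted p = 0.0129). Both genes lay higher in every KO library than in any WT library. So the called genes of the base and of the alpha ring each moved in both directions.

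**Figure D1:**
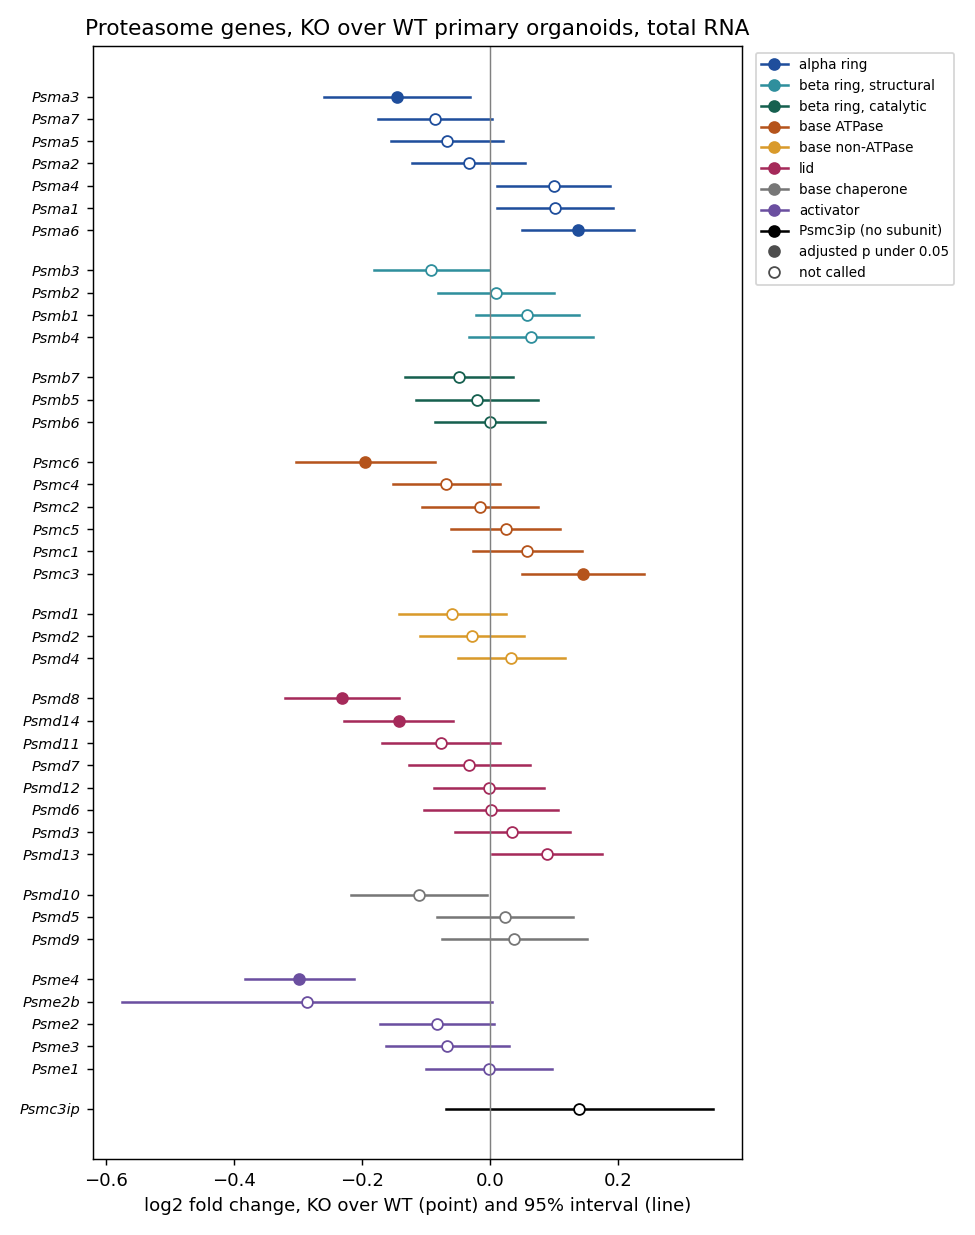
Log2 fold change of the 40 tested proteasome genes, KO over WT, in total RNA of primary organoids (3 libraries each), grouped by role. Points are edgeR estimates, lines are 95% intervals and filled points passed an adjusted p of 0.05. Estimates run between −0.30 (Psme4) and 0.15 (Psmc3), and the 2 filled points on the right and 5 on the left are spread over 4 roles.

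By role, the core particle had 1 gene higher and 1 lower of 14, the regulatory particle 1 higher and 3 lower of 17, the activators 0 higher and 1 lower of 5, and the chaperones none of 3. The 3 catalytic subunits of the core particle, which cut the substrate, had values close to each other in the genotypes. Psmb5, with the chymotrypsin-like activity, had 59.8, 61.5 and 62.8 CPM in KO organoids and 63.6, 62.1 and 64.7 CPM in WT organoids, and its groups overlapped. Psmb6, with the caspase-like activity, had 159, 162 and 159 CPM in KO organoids and 164, 160.1 and 166 CPM in WT organoids, again overlapping. Psmb7, with the trypsin-like activity, had 115, 113 and 110.3 CPM in KO organoids and 118, 119 and 120.3 CPM in WT organoids. Here the groups did not overlap, but the log2 fold change was −0.05 (SE 0.0386, adjusted p = 0.311).

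Among the subunits that meet the substrate, Psmd2, the largest scaffold of the base beside Psmd1, had 299, 288 and 292 CPM in KO organoids and 303, 309 and 303 CPM in WT organoids. Psmd4, a ubiquitin receptor, had 151, 147 and 155 CPM in KO organoids and 149, 152 and 151 CPM in WT organoids. Psmc2, an ATPase, had 105, 104 and 107 CPM in KO organoids and 108, 106 and 112 CPM in WT organoids. The Psmd4 and Psmc2 groups overlapped and the Psmd2 groups did not, and none of the 3 passed the test (adjusted p = 0.542 for Psmd2, 0.495 for Psmd4 and 0.761 for Psmc2). The interferon-induced activator genes gave 102, 104 and 103 CPM of Psme1 in KO organoids against 99.6, 112 and 104 CPM in WT organoids, and 78.6, 76.5 and 79.9 CPM of Psme2 in KO organoids against 82.1, 85.1 and 86.7 CPM in WT organoids. Psme3 had 167, 155 and 156 CPM in KO organoids and 169.7, 177 and 165 CPM in WT organoids. No call was made for Psme1, Psme2 or Psme3, and Psma1, an alpha subunit with 152, 149 and 145 CPM in KO organoids and 141, 138 and 145 CPM in WT organoids, stood just outside the threshold at a log2 fold change of 0.10 (SE 0.0411, adjusted p = 0.0572). Psmc3ip had 10.1, 8.32 and 10.1 CPM in KO organoids and 8.29, 9.18 and 8.94 CPM in WT organoids. The estimates of the 33 genes without a call ran between −0.29 for Psme2b, a copy of Psme2 with 3.22 to 4.1 CPM in KO organoids and 4.05 to 5.03 CPM in WT organoids, and 0.14 for Psmc3ip.

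Of the 40 genes, 4 lay higher in every KO library than in any WT library and 16 lay lower, where 28.3% and 33.3% of all genes tested did so. The summed level of 3 smooth muscle markers was 20.3 to 21.9 CPM in KO total RNA and 5.87 to 6.71 CPM in WT total RNA, and 7 immune markers summed to 22.3 to 24.5 CPM in KO total RNA and 9.84 to 11.4 CPM in WT total RNA, with Ptprc, Lyz2 and Adgre1 at 0 in both. Nearly all of the smooth muscle sum was Acta2 (20.2 to 21.9 CPM in KO and 5.87 to 6.65 CPM in WT total RNA), while Des and Myh11 had at most 0.067 CPM in any total RNA library of primary organoids. Nearly all of the immune sum was Cd68 (22.1 to 24.4 CPM in KO and 9.41 to 11.2 CPM in WT total RNA). Fibroblast markers, 7 in all, summed to 1.98 to 2.34 CPM in KO total RNA and 3.54 to 4.41 CPM in WT total RNA, with Col1a2 and Lum at 0. The part of these cell types in the differences above was not tested. All marker levels are in CPM without TMM factors.

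Genes that act on the proteasome, from lists written for it, were called in both directions in KO total RNA, as were 27.0% higher and 26.3% lower of all genes tested, and nothing particular to these short lists is read from their counts. Nfe2l1, the factor that raises subunit genes, had 134, 136 and 142.5 CPM in KO total RNA and 189.6, 183 and 180.0 CPM in WT total RNA. The groups were far apart, with a log2 fold change of −0.39 (SE 0.0431, adjusted p = 1.35e-05). Nfe2l2, the related factor of the antioxidant response, had 545, 523 and 562 CPM in KO total RNA and 423, 406 and 400.4 CPM in WT total RNA, a log2 fold change of 0.43 (SE 0.0431, adjusted p = 6.18e-06). Of 9 regulators listed, 4 rose (Nfe2l2, its inhibitor Keap1, the glycanase Ngly1 and the small Maf gene Maff) and 2 fell (Nfe2l1 and the ubiquitin ligase Syvn1). Of 12 genes of ubiquitin and the p97 segregase, 3 rose (among them Rps27a and Faf1) and 4 fell (the polyubiquitin gene Ubb, the activating enzyme Uba1, Vcp and Ufd1l). Of 15 proteins that bind the proteasome, AI314180 and Zfand5 rose and Shfm1 and Ubqln1 fell. Of 5 chaperones that assemble the core particle, Psmg1 rose and Pomp fell. The immunosubunit Psmb9 was low in both genotypes, with 3.11, 4.28 and 3.39 CPM in KO total RNA and 2.18, 2.52 and 2.82 CPM in WT total RNA, a log2 fold change of 0.55 (SE 0.16, adjusted p = 0.0129), while Psmb8 and Psmb10 were not called.

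In polysome RNA no proteasome gene was called between the genotypes, with 0 of 40 higher and 0 lower, where 14.9% of the 13066 genes tested were higher and 13.8% lower in edgeR's quasi-likelihood test. At an unadjusted p under 0.05, 2 of the 40 were lower and 0 higher, where 38.2% of all genes tested had one. Of the 40 estimates 31 lay below 0, where 6416 of the 13066 over all genes did. The median of the 40 was −0.07, against 0.00628 over all genes and −0.035 over the abundant ones. Psmc6 had 201, 213 and 225 CPM in KO polysomes and 227, 284 and 333 CPM in WT polysomes. Psmd8 had 456, 448 and 571 CPM in KO polysomes and 563, 653 and 673 CPM in WT polysomes, and Psma3 had 274, 279.9 and 343 CPM in KO polysomes and 293, 404 and 447 CPM in WT polysomes. Only the Psmc6 groups did not overlap, and WT library 1 was the lowest WT library for all 3 genes. The log2 fold changes were −0.37 for Psmc6 (SE 0.142, adjusted p = 0.0615), −0.33 for Psmd8 (SE 0.137, adjusted p = 0.0841) and −0.32 for Psma3 (SE 0.154, adjusted p = 0.136).

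With the replicate number kept as a block, these same 3 genes passed. The adjusted p was 0.013 for Psmc6, 0.023 for Psmd8 and 0.0361 for Psma3, so the count of genes lower in KO polysomes was 3. That fit called 2503 of the 13066 genes tested lower. Same-numbered KO and WT polysome libraries deviated together only weakly over all genes (r = 0.117, 0.159 and 0.154). The count was 1 by DESeq2 (Psmc6), where 2013 of 14202 genes were lower. It was 6 without KO library 3, where 1829 of 13230 genes were lower. Without WT library 1 it was 2, where 1740 of 13229 genes were lower. All 3 were among the genes that fell in total RNA.

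Subpolysome RNA gave 1 call, Psma3, with 145, 154 and 149 CPM in KO subpolysomes and 157, 196 and 207 CPM in WT subpolysomes. Its groups were apart, with a log2 fold change of −0.31 (SE 0.11, adjusted p = 0.0462). The count was 0 higher and 1 lower of 40, where 1391 of the 12645 genes tested were higher and 1391 lower. At an unadjusted p under 0.05, 5 of the 40 were lower and 0 higher, where 32.4% of all genes tested had one. The call was lost without any 1 of KO library 1, 2 or 3 or WT library 2 or 3 (adjusted p = 0.0708 to 0.198). Without WT library 1 the count was 3, where 1257 of the 12948 genes tested were lower. Psme4, called in total RNA, had 98.1, 81.5 and 79.7 CPM in KO subpolysomes and 108, 98.4 and 81.7 CPM in WT subpolysomes, which overlapped. Its polysome values of 142, 135 and 113 CPM in KO organoids and 149, 171 and 144 CPM in WT organoids did not overlap, and were not called.

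The ratio of polysome to subpolysome RNA was compared between the genotypes as an interaction. None of the 40 genes passed, and 0 did at an unadjusted p under 0.05, where 0.00747% of the 13392 genes tested passed and 5.66% had an unadjusted p under 0.05. The estimates ran between −0.29 for Psmc2 and 0.25 for Psmc3ip. The ratio of polysome to total RNA gave 0 of 40 as well, where 0.0% of the 13507 genes tested passed and 1.95% had an unadjusted p under 0.05, and DESeq2 called none of the 41 genes with a value in the first ratio or of the 42 in the second. In that comparison the estimates ran between −0.17 and 0.18, and the 95% interval lay within 0.5 of 0 for 38 of the 40, against 53.3% of all genes tested.

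**Figure D2:**
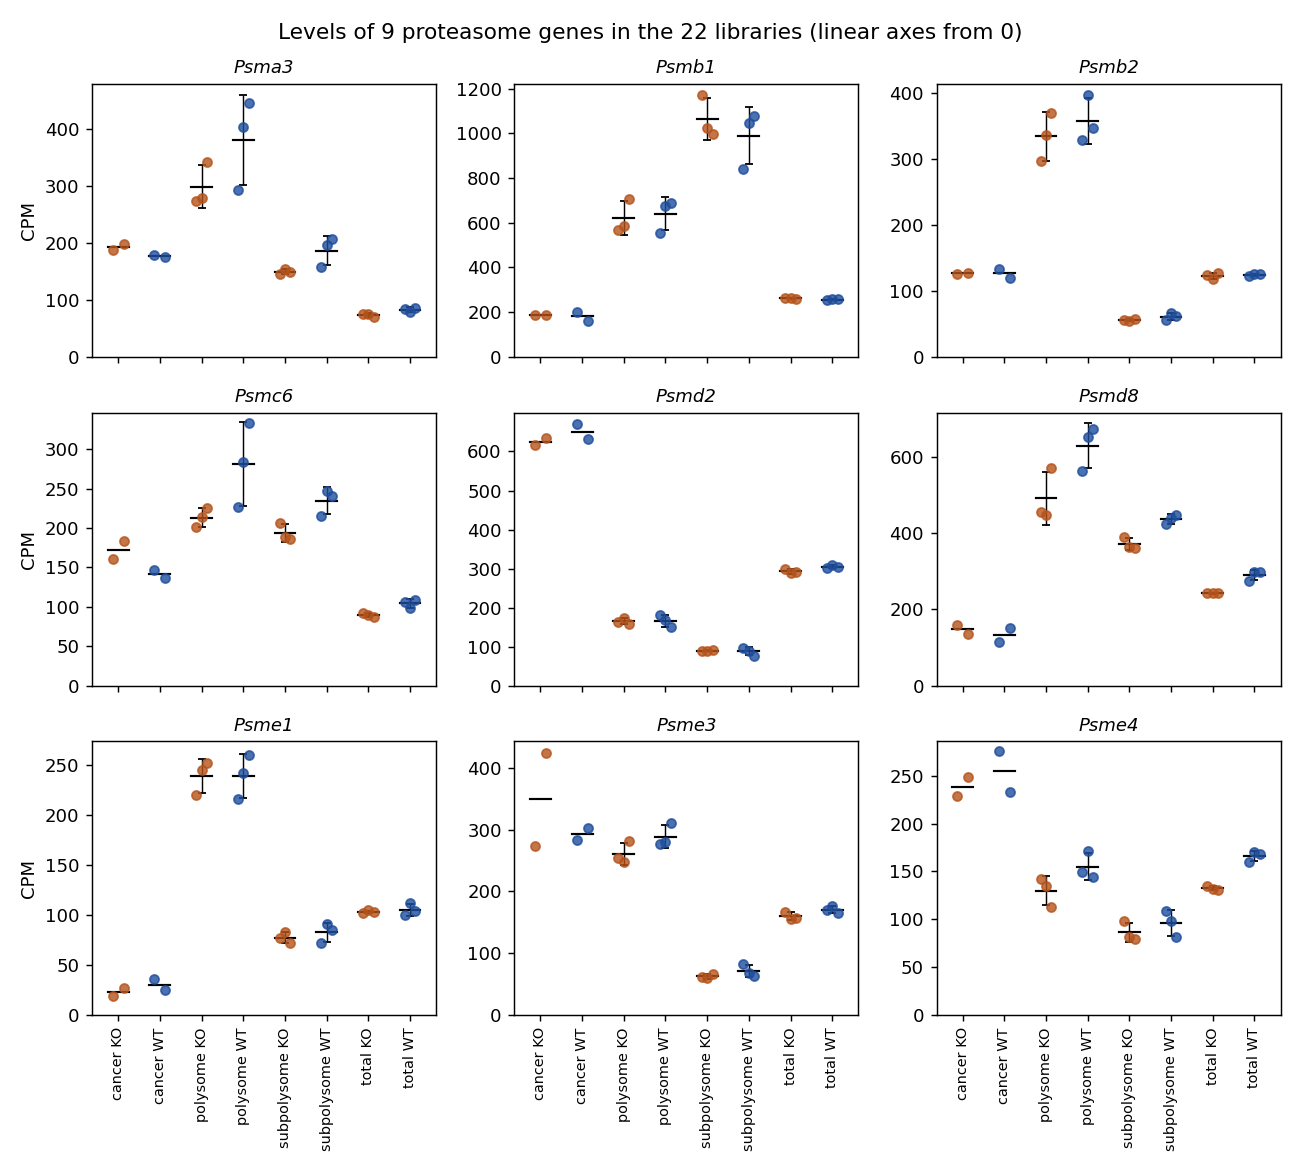
Levels in CPM of 9 proteasome genes in all 22 libraries, on linear axes from 0, by group. Points are libraries, lines are group means and bars are the SD of groups of 3 libraries. Psme4 and Psmd8 are lower in KO than in WT total RNA without overlap, Psmb1 is highest in subpolysomes, Psmb2 is highest in polysomes, and Psme1 is lowest in the cancer organoids.

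Polysomes were rich in proteasome mRNAs. The 42 genes took 1.16% to 1.27% of counts in KO polysomes and 1.2% to 1.31% in WT polysomes, against 0.335% to 0.355% in KO subpolysomes and 0.358% to 0.371% in WT subpolysomes. In KO organoids 35 of the 40 genes were higher and 2 lower in polysome than in subpolysome RNA, where 31.7% of all genes tested were higher and 29.9% lower. In WT organoids the counts were also 35 and 2, where 32.8% were higher and 30.9% lower. The median log2 ratio of the 40 genes was 1.22 in KO and 1.26 in WT organoids, against 0.0102 and 0.00942 over all genes tested. These ratios compare shares of each library, since the amount of RNA in a fraction was not measured by the counts. Scaling by library totals put the median of all genes at 0.90 in KO and 0.84 in WT organoids, and that of the 40 genes at 2.10 in KO and 2.09 in WT organoids, with 39 higher and 0 lower in each.

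Psmb2, a structural beta subunit at chr4:126677630-126709714, stood furthest toward polysomes. It had 297, 336 and 371 CPM in KO polysomes, against 55.9, 54.7 and 58.0 CPM in KO subpolysomes. WT polysomes had 329, 398 and 348 CPM, against 55.4, 65.9 and 62.2 CPM in WT subpolysomes. The log2 ratio was 2.55 in KO (SE 0.125, adjusted p = 5.45e-13) and 2.50 in WT organoids (SE 0.125, adjusted p = 5.8e-13).

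Further genes with high ratios came from several roles. Psmd3, a lid subunit, had 157, 196 and 204 CPM in KO polysomes and 41.6, 42.4 and 47.2 CPM in KO subpolysomes, and 175, 145 and 178 CPM in WT polysomes and 48.2, 41.7 and 41.1 CPM in WT subpolysomes. Psme3, a nuclear activator, had 255, 247 and 282 CPM in KO polysomes and 61.2, 59.3 and 66.1 CPM in KO subpolysomes, and 277, 280.0 and 311 CPM in WT polysomes and 82.4, 68 and 63.3 CPM in WT subpolysomes. Their log2 ratios were 2.06 and 2.05 in KO and 1.87 and 1.97 in WT organoids. Polysome and subpolysome libraries of both genes were apart.

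The alpha subunits Psma4 and Psma6 stood next in KO organoids and ahead of Psmd3 and Psme3 in WT organoids. Psma4 had 349, 368 and 393 CPM in KO polysomes and 101, 81.4 and 91.5 CPM in KO subpolysomes, and 357, 429.5 and 424 CPM in WT polysomes and 89.9, 105 and 93.1 CPM in WT subpolysomes. Psma6 had 463, 471 and 514 CPM in KO polysomes and 131, 107 and 117 CPM in KO subpolysomes, and 446, 543 and 522 CPM in WT polysomes and 111, 125 and 132 CPM in WT subpolysomes. The log2 ratio was 2.00 for each in KO organoids, and 2.02 for Psma4 and 1.99 for Psma6 in WT organoids, without overlap. Among the activators, Psme1 had 219, 245 and 252 CPM in KO polysomes and 76.7, 82.8 and 71.6 CPM in KO subpolysomes, and 215, 242 and 259 CPM in WT polysomes and 71.9, 90.4 and 84.9 CPM in WT subpolysomes. Psme2, its partner in the ring, had 228, 232 and 299 CPM in KO polysomes and 62.4, 68.1 and 67.6 CPM in KO subpolysomes, and 257, 305 and 318 CPM in WT polysomes and 74.5, 72.4 and 79.7 CPM in WT subpolysomes. Psmd14, the deubiquitinase, had 154, 165 and 141 CPM in KO polysomes and 72.4, 70.4 and 60.8 CPM in KO subpolysomes, and 171, 188 and 170.3 CPM in WT polysomes and 83.5, 86.1 and 81 CPM in WT subpolysomes. Each of these 3 lay higher in every polysome library, with log2 ratios of 1.61 for Psme1, 1.92 for Psme2 and 1.15 for Psmd14 in KO organoids and 1.49, 1.90 and 1.03 in WT organoids.

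In subpolysomes the catalytic subunits had 50.6, 63.2 and 53.5 CPM of Psmb5, 175, 191 and 181 CPM of Psmb6 and 198, 172 and 177 CPM of Psmb7 in KO organoids. In WT organoids they had 45.3, 58.5 and 64.1 CPM of Psmb5, 185, 186 and 201 CPM of Psmb6 and 178, 218 and 222 CPM of Psmb7. Psma1 had 184, 164 and 145 CPM in KO subpolysomes and 157, 187 and 186 CPM in WT subpolysomes, and Psmc2 had 46.7, 55.1 and 61.2 CPM in KO subpolysomes and 54.2, 50.7 and 46.9 CPM in WT subpolysomes. All 5 overlapped between the genotypes and were higher in polysomes in both. All 7 alpha subunits tested, all 3 catalytic subunits and all 5 activators were higher in polysomes in both genotypes. So were all 8 lid genes of the rule, though the call of Psmd8 in KO organoids was lost without KO polysome library 3 (adjusted p = 0.06). Shfm1, a further lid subunit outside the rule, counted here among 15 listed proteins that bind the proteasome, went the other way. It was called lower in polysomes in both genotypes. It had 171 to 233 CPM in KO polysomes and 731 to 917 CPM in KO subpolysomes. In WT organoids it had 198 to 237 CPM in polysomes and 922 to 1152 CPM in subpolysomes. Of those 15, 12 were higher in polysomes in KO and 13 in WT organoids.

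Psmb1 and Psmd4 were the 2 genes on the other side. Psmb1, a structural beta subunit at chr17:15475021-15499751, had 569, 583 and 708 CPM in KO polysomes against 1172, 1026 and 998 CPM in KO subpolysomes, and 556, 675 and 689 CPM in WT polysomes against 842, 1048 and 1079 CPM in WT subpolysomes. The log2 ratio was −0.80 in KO (SE 0.139, adjusted p = 3.5e-05) and −0.68 in WT organoids (SE 0.138, adjusted p = 0.000217), but under scaling by library totals it was 0.08 and 0.15 and not called. Psmd4, the ubiquitin receptor at chr3:95032694-95042614, had 177, 201 and 215 CPM in KO polysomes against 260.3, 259 and 269 CPM in KO subpolysomes, and 196, 204 and 215 CPM in WT polysomes against 240.04, 291 and 279.98 CPM in WT subpolysomes. Its log2 ratio was −0.44 in KO (SE 0.113, adjusted p = 0.00213) and −0.45 in WT organoids (SE 0.113, adjusted p = 0.00164), and it turned to 0.44 and 0.38 under scaling by library totals, both called. Relative to the median of all genes both stayed below it under either scaling. Psmb4, Psmc6 and Psmc3ip were not called in either genotype, but Psmb4 stood close to the threshold in KO organoids (adjusted p = 0.052) and was called higher in polysomes of both genotypes with no filter and in the fit over all 18 primary libraries, which also called Psmc6 higher in WT organoids (adjusted p = 0.0444). Scaled by library totals, all 3 were called higher in both. Psmc3ip had 23.5, 20.9 and 26.3 CPM in KO polysomes and 22.7, 22.5 and 25.8 CPM in KO subpolysomes, and 19.2, 22.6 and 19.8 CPM in WT polysomes and 21.8, 24.2 and 26.2 CPM in WT subpolysomes, which overlapped.

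**Figure D3:**
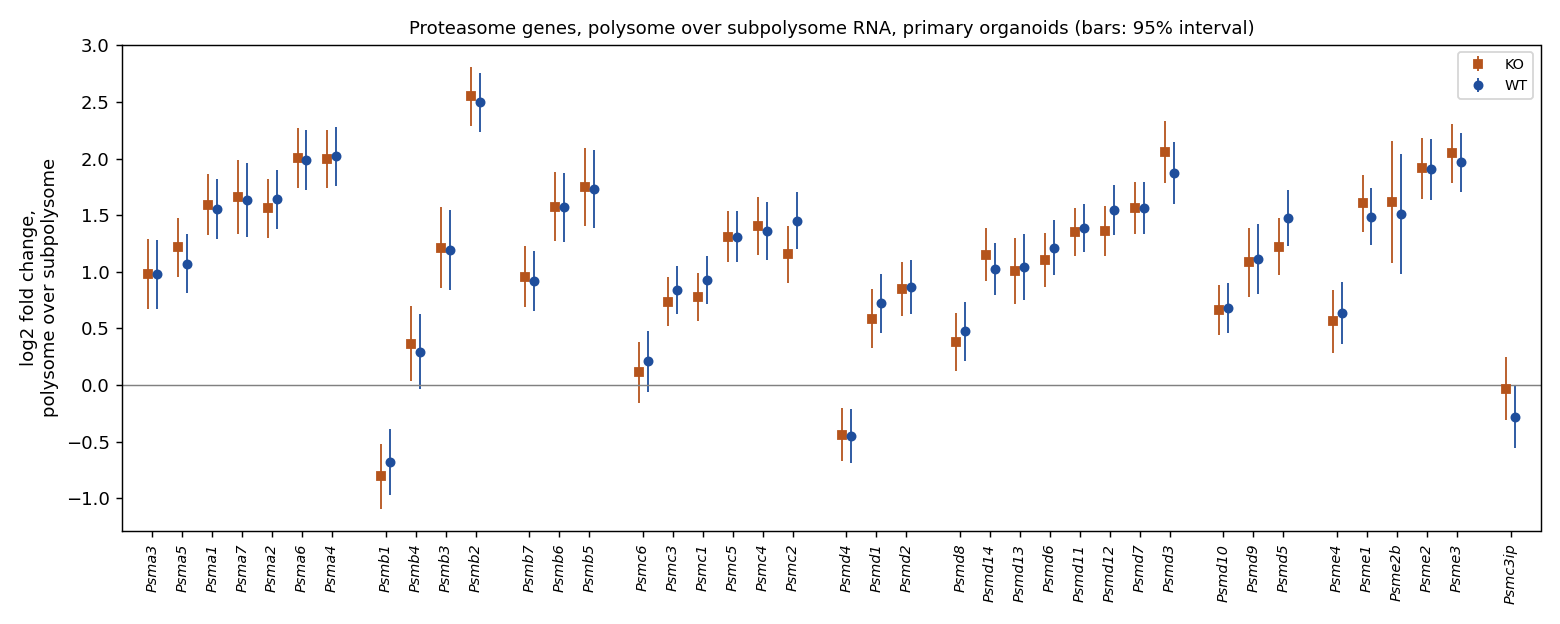
Log2 ratio of polysome over subpolysome RNA for the 40 tested proteasome genes, by role, in KO (squares) and WT (circles) primary organoids. Bars are 95% intervals of the edgeR fit with TMM scaling. Psmb2 is highest at 2.55 in KO and 2.50 in WT, and Psmb1 and Psmd4 are below 0, a direction that turned to above 0 when libraries were scaled by their totals.

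Compared with total RNA, 37 of the 40 genes were higher and 2 lower in KO polysomes, where 32.7% of all genes tested were higher and 33.4% lower. In WT polysomes 36 were higher and 2 lower, where 33.1% were higher and 34.8% lower. The core particle led: all 14 of its tested genes were higher, with a median log2 ratio of 1.73 in KO and 1.84 in WT organoids. The regulatory particle had 15 of 17 higher and 2 lower in KO organoids, with a median of 0.57, and 14 of 17 higher and 2 lower in WT organoids, with a median of 0.65. Psmd1 and Psmd2, the scaffolds of the base, were the 2 lower genes in both genotypes.

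Psmb3, a structural beta subunit, had the highest ratio. It had 253, 282 and 419 CPM in KO polysomes against 66.4, 69.2 and 68.8 CPM in KO total RNA, and 293, 369.7 and 424 CPM in WT polysomes against 73.2, 74.4 and 74.7 CPM in WT total RNA. The groups were well apart, with a log2 ratio of 2.21 in KO (SE 0.157, adjusted p = 3.72e-09) and 2.25 in WT organoids (SE 0.157, adjusted p = 2.35e-09). Psma3, with the total and polysome values given above, had a log2 ratio of 2.01 in KO and 2.16 in WT organoids. Psma7, the alpha subunit with 519, 528 and 760.02 CPM in KO polysomes and 153, 149 and 149 CPM in KO total RNA, and 584, 739 and 773 CPM in WT polysomes and 161, 159 and 168 CPM in WT total RNA, had a log2 ratio of 1.99 in KO and 2.06 in WT organoids. Psma1 had 493, 508 and 513 CPM in KO polysomes and 466, 594 and 552 CPM in WT polysomes, and log2 ratios to total RNA of 1.75 in KO and 1.89 in WT organoids.

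The catalytic subunits were again close to each other. Psmb5 had 155, 177 and 240.5 CPM in KO polysomes and 169.6, 184 and 224 CPM in WT polysomes. Psmb6 had 459, 489 and 706 CPM in KO polysomes and 521, 596 and 643 CPM in WT polysomes, and Psmb7 had 332, 348 and 399.9 CPM in KO polysomes and 351, 428 and 434 CPM in WT polysomes. Every polysome library lay above every total RNA library of its genotype for these 3, with log2 ratios of 1.62, 1.77 and 1.66 in KO and 1.56, 1.81 and 1.72 in WT organoids.

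Psmd1 had 90.4, 83.7 and 74 CPM in KO polysomes against 149, 145 and 146 CPM in KO total RNA, and 92.4, 93.7 and 75.9 CPM in WT polysomes against 151, 159 and 157 CPM in WT total RNA. Psmd2 had 164, 174 and 159 CPM in KO polysomes and 181, 167 and 151 CPM in WT polysomes, each below its total RNA. The log2 ratios to total RNA were −0.84 for Psmd1 (SE 0.0973, adjusted p = 9.8e-07) and −0.84 for Psmd2 (SE 0.0849, adjusted p = 2.06e-07) in KO organoids, and −0.87 for Psmd1 and −0.91 for Psmd2 in WT organoids. Both genes were also low in subpolysomes, with 49.96 to 59.5 CPM of Psmd1 and 89.95 to 90.4 CPM of Psmd2 in KO libraries and 48 to 56.2 CPM of Psmd1 and 77.4 to 97.8 CPM of Psmd2 in WT libraries. Psme4 was not called in either genotype, and Psmc2, an ATPase with 132, 125 and 112 CPM in KO polysomes and 147, 151 and 132 CPM in WT polysomes, was called in KO organoids at 0.21 (SE 0.0852, adjusted p = 0.0394), a call lost in 12 of 18 alternatives. Psmd3 was called at 0.25 in KO organoids (SE 0.103, adjusted p = 0.0443) and not in WT organoids at 0.07 (SE 0.103, adjusted p = 0.569), and the KO call was lost without KO polysome library 2 or 3, without any 1 of the 6 total RNA libraries, and under scaling by library totals.

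The polysome over total ratio ran with coding length. Across the 40 genes it gave Pearson's r = −0.82 and Spearman's rho = −0.76 with log length in KO organoids, and r = −0.81 and rho = −0.73 in WT organoids. The points share their libraries and fit, so this is a description. Without Psme4, Psmd1 and Psmd2, the longest, r was −0.76 in KO and −0.73 in WT organoids. Across all genes tested with a length it was −0.60 in KO and −0.59 in WT organoids. The 23 genes under 1000 nt of coding sequence had a median of 1.56 in KO and 1.56 in WT organoids, and the 17 longer ones 0.55 in KO and 0.54 in WT organoids. All 14 tested core particle genes were among the shorter ones, so role and length largely went together. Short genes outside the core particle lay on both sides of its lowest ratio, 1.24 in KO and 1.28 in WT organoids. With 1 library left out, Psme3 (762 nt) had 0.64 to 0.74 in KO and 0.68 to 0.75 in WT organoids. Psme2 (717 nt), whose reads are uncertain, had 1.54 to 1.75 in KO and 1.7 to 1.83 in WT organoids. The parts of role and length were not tested. The polysome over subpolysome ratio gave r = −0.24 in KO and −0.18 in WT organoids.

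**Figure D4:**
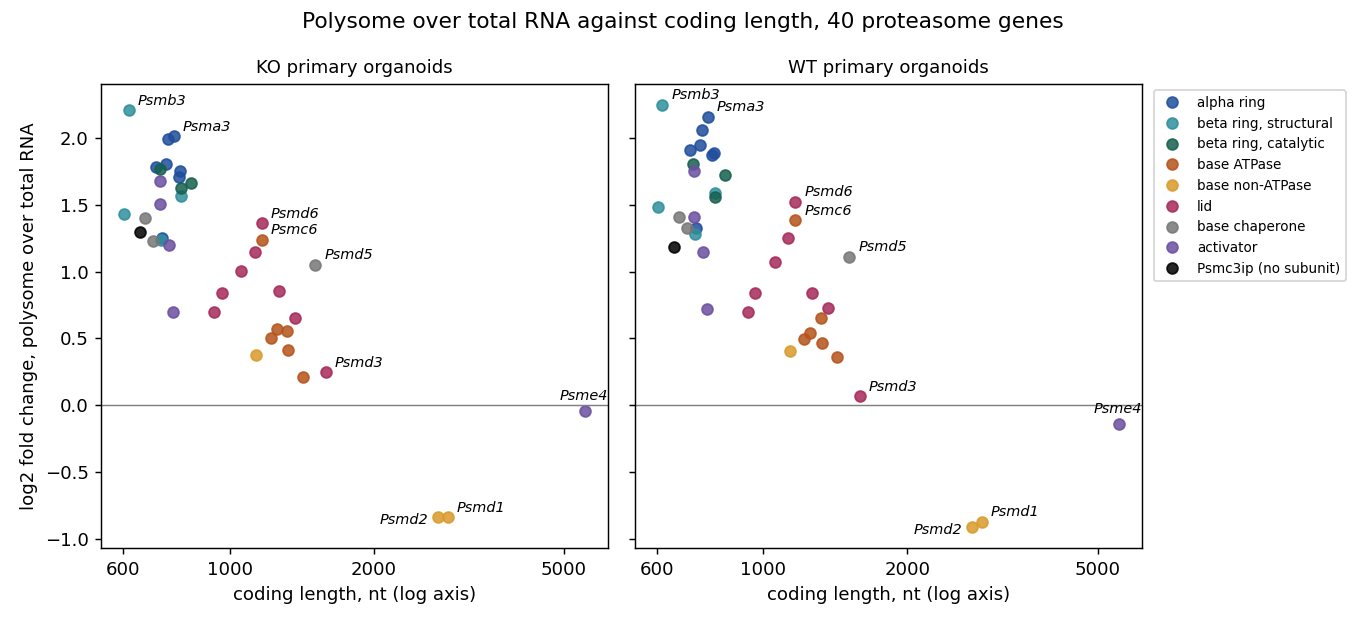
Log2 ratio of polysome over total RNA against coding length (log axis, nt) for 40 proteasome genes in KO (left) and WT (right) primary organoids, coloured by role. Each point is a gene. Shorter genes lie higher, Psmb3 reaching 2.21 in KO and 2.25 in WT, and Psmd1 and Psmd2 lie lowest at −0.84 and −0.84 in KO and −0.87 and −0.91 in WT.

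The 3 kinds of RNA together split the genes into patterns, read from libraries that do not overlap in CPM scaled by TMM factors. Both gradient fractions lay above total RNA for 15 of the 40 genes (37.5%), where 10.9% of the 10602 genes with at least 10 counts in every library did so: Psma2, Psma3, Psma7, Psmb1, Psmb3, Psmb4, Psmb6, Psmb7, Psmc6, Psmd4, Psmd6, Psmd8, Psmd9, Psmd10 and Psmc3ip. Polysomes lay above and subpolysomes below total RNA for 11 (27.5%), where 6.75% of those genes did so, and these were Psmb2, 4 of the 6 ATPases (Psmc1, Psmc3, Psmc4 and Psmc5), the lid genes Psmd7, Psmd11, Psmd12 and Psmd14, and the activators Psme1 and Psme3. Both fractions lay below total RNA for Psmd1 and Psmd2, where 14.1% of those genes did so. The other 12 genes overlapped somewhere. The TMM factors were 0.604 to 0.712 in subpolysome libraries and 1.2 to 1.26 in total RNA libraries of primary organoids. As plain shares of counts, the proteasome genes together took 0.335% to 0.371% in subpolysomes and 0.583% to 0.594% in total RNA. Subpolysome levels above total RNA are therefore read under TMM scaling only, and the patterns under scaling by library totals were not tested.

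Subunits that stand in equal number in the finished particle had unequal mRNA levels, set per kilobase since longer mRNAs give more counts. Per kilobase of coding length, the 31 tested genes of the core and regulatory particles had an SD of log2 CPM of 0.67 in KO and 0.66 in WT total RNA, and the highest stood at 7.07 times the lowest in KO and 6.52 times in WT total RNA. Per kilobase of the whole annotated transcript the SD was 0.72 in KO and 0.69 in WT total RNA, but other genes were at the ends: Psmb1 and Psmd1 were highest and lowest by coding length, and Psmb6 and Psma3 by transcript length, so no order of the genes is read from these levels. The SD by coding length was 1.24 in KO and 1.27 in WT polysomes, and 1.35 in KO and 1.39 in WT subpolysomes, and by transcript length it was 1.15 in KO and 1.16 in WT polysomes and 1.24 in KO and 1.27 in WT subpolysomes. In cancer organoids the spread was smaller, with an SD by coding length of 0.41 in those labelled KO and 0.42 in those labelled WT. By transcript length it was 0.48 in those labelled KO and 0.50 in those labelled WT. The processing named for cancer and primary libraries differed, so tumour origin and processing cannot be told apart. Psmb5, Psmb3 and Psma5, whose reads are uncertain, are among the 31 genes.

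Between cancer organoids labelled KO and WT no proteasome gene was called in edgeR's quasi-likelihood test, with 0 of 41 higher and 0 lower, where 0.0% of the 12681 genes tested were called and 0.757% had an unadjusted p under 0.05. Of the 41, 0 had an unadjusted p under 0.05, and DESeq2 called 0. Arid1a did not follow these labels, so the comparison is one of labels and cannot show an effect of genotype. The estimates ran between −0.40 and 0.29, with a median of 0.11. Of the 41, 10 genes lay higher in both libraries labelled KO than in both labelled WT, where 10.1% of all genes did. Psme4 had 229 and 249 CPM in those labelled KO and 276 and 234 CPM in those labelled WT, and Psmd8 had 160.04 and 135 CPM in those labelled KO and 115 and 151 CPM in those labelled WT. Both overlapped. Psma1, at 175 and 183 CPM in those labelled KO and 154 and 159 CPM in those labelled WT, and Psma3, at 188 and 198 CPM in those labelled KO and 178 and 175 CPM in those labelled WT, did not overlap.

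The difference between cancer libraries labelled KO and WT, minus that between KO and WT in primary total RNA, gave 0 of 41 calls, where 1.53% of the 14305 genes tested were higher and 1.6% lower, and 3 of the 41 had an unadjusted p under 0.05, where 20.3% of all genes tested did. Psmc6 came nearest, at 0.46 (SE 0.117, adjusted p = 0.079), with 161 and 184 CPM in cancer libraries labelled KO and 147 and 136 CPM in those labelled WT. DESeq2 called it, at an adjusted p of 0.00738. Arid1a had 175 and 56.8 CPM in the cancer libraries labelled KO and 66.9 and 196 CPM in those labelled WT. The contrast is therefore one of labels and cannot show an effect of Arid1a in cancer. The count of called genes changed when single cancer libraries were left out. Such fits keep a single library under a label, so nothing is read from their counts.

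Cancer organoids differed from primary ones in most proteasome genes, as in most genes. Over 4 cancer and 6 primary total RNA libraries, 29 of the 40 genes were higher and 7 lower in cancer, where 38.8% of all genes tested were higher and 39.0% lower. The median log2 fold change was 0.51, against −0.03 over all genes. Psmb11, the 41st gene in this fit, is left out of these values. HTSeq alone was named for the cancer libraries, against Bowtie and HTSeq for the primary ones, so tumour origin and processing cannot be told apart. All 6 ATPases were higher, with a median of 0.66, as were 7 of 8 lid genes and 6 of 7 alpha genes. Of the 31 tested genes of the core and regulatory particles, Psmb1, Psmb6, Psmd4 and Psmd8 were lower.

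Among the genes that rose, Psmd1 had 364 and 382 CPM in cancer organoids labelled KO and 417 and 341 CPM in those labelled WT, and between 145 and 159 CPM, with a median of 150.3, in the 6 primary libraries. Every cancer library lay above every primary one, and the log2 fold change was 1.29 (SE 0.0611, adjusted p = 3.58e-07). Psma3 had 175 to 198 CPM in cancer organoids and between 70.04 and 86.7 CPM, with a median of 77.1, in primary ones, a log2 fold change of 1.22 (SE 0.0487, adjusted p = 1.6e-07). Psmd2 had 617, 634, 670.01 and 631 CPM in cancer organoids and between 288 and 309 CPM, with a median of 301, in primary ones, a log2 fold change of 1.07 (SE 0.04, adjusted p = 1.25e-07). Psmd1 and Psmd2, the pair lower in polysomes than in total RNA of primary organoids, were among the genes furthest above primary organoids in this separate comparison. Psmc3ip averaged 20.9 ± 4.99 CPM in cancer (SD, n = 4) and 9.15 ± 0.804 CPM in primary organoids (SD, n = 6), a log2 fold change of 1.16.

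Psmc2, Psmb7, Psmd14, Psme3 and Psme4 were moderately higher. Psmc2 averaged 172 ± 4.5 CPM in cancer and 107 ± 2.91 CPM in primary organoids, and Psmb7 averaged 190.4 ± 8.74 CPM in cancer and 116 ± 3.81 CPM in primary organoids (SD, n = 4 and 6). Psmd14 had a log2 fold change of 0.62. Psme3 averaged 321 ± 70.1 CPM in cancer and 165 ± 8.2 CPM in primary organoids (SD, n = 4 and 6). Psme4 averaged 247 ± 21.3 CPM in cancer and 149 ± 18.8 CPM in primary organoids. None of these groups overlapped. Psma1, at a log2 fold change of 0.18, and Psmb5, at 0.41 with overlapping groups, lost their calls when the libraries labelled WT alone were compared, as did Psma7 and the ATPase Psmc4, and Psmb5 also without the first cancer library labelled KO (adjusted p = 0.0652).

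The interferon-induced activator pair was lowest in cancer. Psme1 had 18.7 and 26.5 CPM in cancer organoids labelled KO and 35.3 and 24.4 CPM in those labelled WT, and between 99.6 and 112 CPM, with a median of 103, in primary ones. Psme2 had 35.6 and 18.7 CPM in those labelled KO and 24.2 and 26 CPM in those labelled WT, and between 76.5 and 86.7 CPM, with a median of 81, in primary ones. The groups lay far apart, with log2 fold changes of −2.02 for Psme1 (SE 0.136, adjusted p = 2.51e-06) and −1.67 for Psme2 (SE 0.164, adjusted p = 2.54e-05). The immunosubunit Psmb8, induced by the same signal, averaged 0.126 CPM in cancer and 1.45 CPM in primary organoids, and Psmb9 averaged 1.15 CPM in cancer and 3.05 CPM in primary organoids with overlapping groups. Both passed the test, while Psmb10 did not (adjusted p = 0.113).

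Of the core and regulatory genes that fell, Psmd8 averaged 140.3 ± 19.7 CPM in cancer and 267 ± 27.7 CPM in primary organoids, a log2 fold change of −0.95 (SE 0.0865, adjusted p = 1.55e-05). Psmb6 had 117, 98, 109 and 109 CPM in cancer organoids and between 159 and 166 CPM, with a median of 161, in primary ones, a log2 fold change of −0.60. Psmd4 averaged 119 ± 7.42 CPM in cancer and 151 ± 2.52 CPM in primary organoids, a log2 fold change of −0.36. The groups of all 3 were apart. Psmb6 and Psmb7, which stand in the same ring with catalytic sites of different preference, moved in opposite directions. Psmb11 had 8 to 18 counts in each cancer library, 53 in all, and 3 in all in the 6 primary total RNA libraries. It had up to 12 counts in a primary subpolysome library, the second KO one, and it passed the filter on low counts here only through the cancer libraries, so its call is not read.

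**Figure D5:**
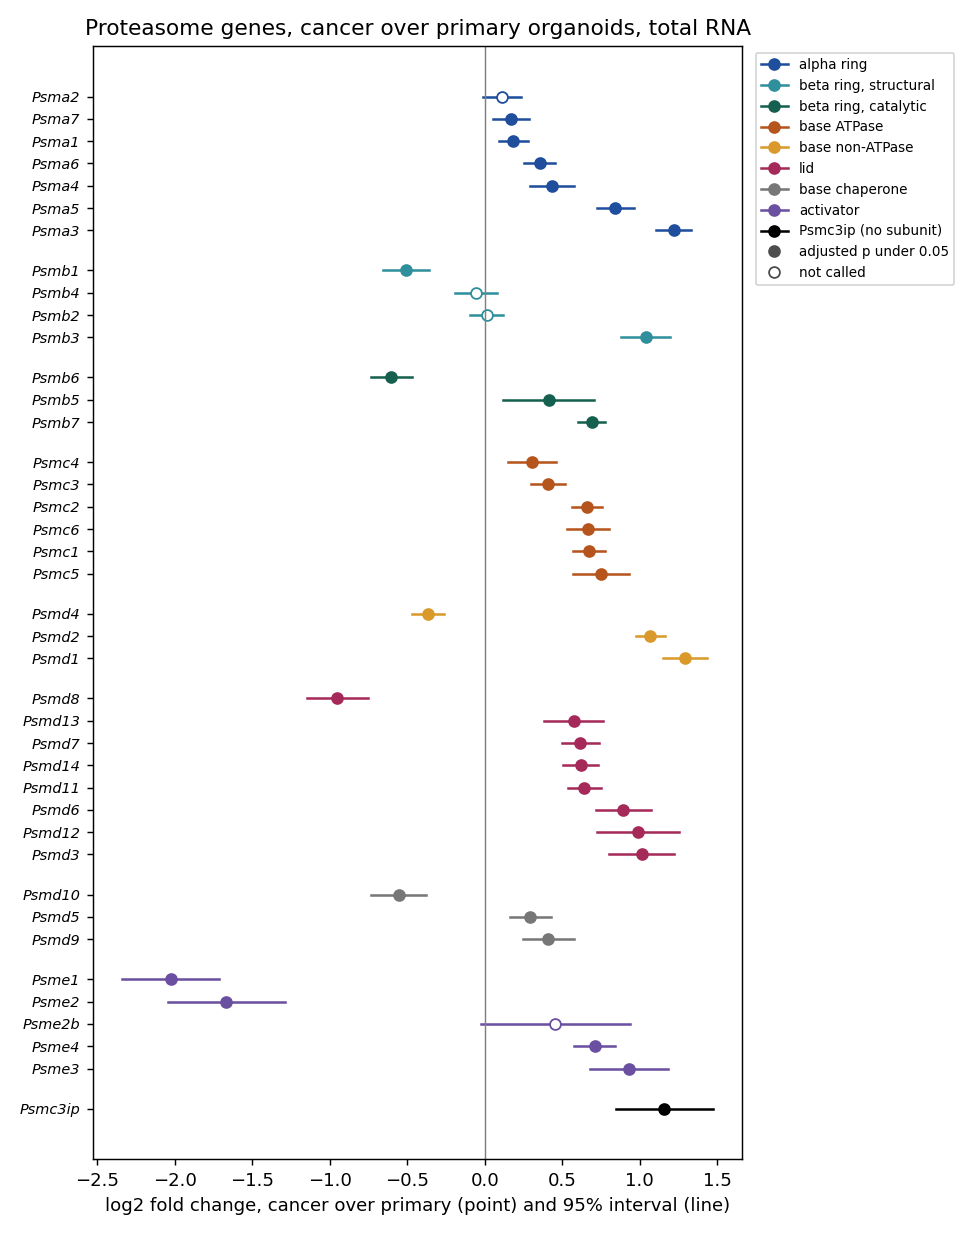
Log2 fold change of 40 proteasome genes, cancer over primary organoids, in total RNA (4 and 6 libraries), by role. Points are edgeR estimates, lines 95% intervals and filled points passed an adjusted p of 0.05. Psmb11, with 53 counts in cancer and 3 in primary libraries, is left out. Psme1 and Psme2 lie lowest at −2.02 and −1.67, and Psmd1 highest at 1.29.

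Related genes were called in both directions between cancer and primary organoids, as were 38.8% higher and 39.0% lower of all genes tested, and again nothing particular to the lists is read. Of 15 proteins that bind the proteasome 10 were higher and 4 lower, of 9 regulators 4 were higher and 3 lower, and of 5 core assembly chaperones 2 were higher and 1 lower. Of 12 ubiquitin and p97 genes, 9 were higher, among them Vcp with a log2 fold change of 1.60, and 3 lower, among them the autophagy receptor Sqstm1 with −2.31. Nfe2l1 had a log2 fold change of 0.26 (SE 0.0708, adjusted p = 0.00996) with overlapping groups. The 13 genes with CCGGAAG in a promoter entry had a median log2 fold change of 0.67 (−0.36 to 1.16). The 22 without it had a median of 0.36 (−2.02 to 4.96). Those 22 include Psmb11, the highest, which was left out of the values above and is not read. The ranges overlapped and the genes share their libraries, so this is a description.

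Within groups, the subunits' levels were correlated most in polysomes. After each library was set against its group mean, the mean pairwise Pearson's r among the 40 genes was 0.25 over the 6 polysome libraries, 0.12 over the 6 total RNA libraries and 0.045 over the 6 subpolysome libraries, against values between 0.000581 and 0.0106 over all 10602 genes with at least 10 counts in every library. These are descriptions over few libraries. In KO polysome library 3, 29 of the 40 genes lay above their group mean, with a median deviation of 0.12 in log2 CPM, and in KO polysome library 1 only 9 did, with −0.08. In WT polysome library 1, 7 did, with −0.12, against 32 and 27 in WT libraries 2 and 3. In total RNA the median deviation of a library stayed between −0.01 and 0.02. Without centring on groups, the mean r was 0.60 over the 18 primary libraries and 0.30 over the 10 total RNA libraries, against 0.00594 and 0.00273 over all genes. These uncentred values restate the differences between fractions and between cancer and primary organoids given above, and are no separate result. A mean over all genes lies near 0 where rises and falls balance, so any genes sharing a direction exceed it.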

How the data were processed

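RNA of mouse bladder organoids was sequenced in 22 libraries. The deposited values were raw counts per gene symbol, whole numbers without normalization, and per the submitters' processing notes they were made on mm10 with HTSeq, with Bowtie named as well for the 18 primary libraries. The sources used here name no versions or annotation and say nothing of strand or of reads with several matches, so overlapping genes (Psmc3ip with Mlx, Psmb7 with Nek6) and near-identical copies may exchange reads. Groups and replicate numbers came from the labels.

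Each comparison was fitted over all genes on its own libraries by edgeR's quasi-likelihood F test (version 4.0.16, R 4.3.3) after filterByExpr and TMM scaling, with Benjamini-Hochberg adjustment and a threshold of 0.05. DESeq2 1.42.0, its size factors, no filter, scaling by library totals (chosen after seeing the data), a replicate block, a fit over 18 libraries and leaving out each library were alternatives. The fitting code was tested on simulated data. Correlations used log2 of CPM plus 0.5 and coding and transcript lengths used GENCODE. Same-numbered KO and WT polysome libraries deviated together weakly (r = 0.117, 0.159 and 0.154, pairing read from these correlations only), while total and subpolysome libraries did not.

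Values in every library were given for a set list of subunits (Psma1, Psma3, Psmb5, Psmb6, Psmb7, Psmc2, Psmd2, Psmd4, Psmd14, Psme1 to Psme4 and Psmc3ip) and for called genes with the largest changes, 5 each way in total RNA and 3 each way elsewhere. The genes, lists and tests were chosen with earlier results of these data known. At the lowest depth 1 CPM, without TMM factors, stood for 39.2 counts. Some genes of the related lists are counted but not reported singly here.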

Additional observations from a re-analysis of the deposited data

How the results depend on the processing

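Most results kept their direction and their side of the threshold: 343 of 370 recomputed counts of proteasome genes stayed within 1.5 times the reported count, and 1498 of 1538 recomputed values of called and named genes kept their call, while 36 lost it and 4 reversed. Over all 42 genes the alternatives gained 68 calls, in 21 genes, and lost 55, in 16 genes. Calls between the genotypes held less often for some genes. The Psma3 call was kept in 6 of 12 alternatives in total RNA and in 6 of 12 in subpolysomes. That of Psmc3 in total RNA was kept in 9 of 12, and the others in 11 or 12. The 4 reversed values were those of Psmb1 and Psmd4 between polysomes and subpolysomes under scaling by library totals. Their log2 ratios were then 0.076 and 0.44 in KO and 0.15 and 0.38 in WT organoids. The counts of lower genes were 0 in KO and 0 in WT organoids under that scaling. This alternative moves the median of all genes by its construction. In KO against WT total RNA the count higher was 5 under scaling by library totals and 0 in the fit over all 18 libraries, which gave 2 lower. That fit called 1770 of 13787 genes higher and 2014 lower. Leaving out 1 library gave 1 to 3 higher. In polysomes the count lower was 1 with no filter, 1 by DESeq2, 4 in the fit over 18 libraries, and 0 to 6 with 1 library left out. Over all genes, 2033 of 17206 were lower with no filter and 2464 of 13787 in the fit over 18 libraries. In subpolysomes the count lower was 3 by DESeq2, 2 in the fit over 18 libraries, and 0 to 3 with 1 library left out. Over all genes, 1515 of 14471 were lower by DESeq2 and 2112 of 13787 in the fit over 18 libraries. The difference by label in cancer minus that by genotype in primary organoids gave 1 higher by DESeq2, and its count changed when single cancer libraries were left out. Beyond the shift in the median, the causes of these changes were not tested.

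With the replicate number as a block, 3 genes were lower in KO polysomes and 4 in KO subpolysomes (Psma3, Psma5, Psmc6 and Psmd14). Over all genes, 2503 of 13066 were lower in KO polysomes and 1651 of 12645 in KO subpolysomes. Subpolysome libraries of one number did not deviate together. In cancer against primary organoids the block gave 23 higher and 7 lower. Psmb11 was not called in that edgeR fit (adjusted p = 0.0719) and is not among the 23. Same-numbered cancer libraries labelled KO and WT deviated in opposite directions over all genes (r = −0.377). The count over all genes in that fit is not given here, so nothing is read from 23 and 7. Between polysomes and subpolysomes the block called Psmb4 higher in both genotypes (adjusted p = 0.0199 in KO and 0.0416 in WT organoids). There it also called Psmc3ip lower in WT organoids (adjusted p = 0.048). The deviations of same-numbered fractions correlated weakly, at 0.0361 to 0.12. The block changed no other count by more than 1.5 times. Levels per kilobase used the coding part, with the whole transcript added after seeing the data. Crossing the numbers of the 4 cancer libraries gave 0 higher and 0 lower. Depth limited Psma8 and Psmb11, which had too few counts for a test in primary organoids.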

Other observations

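The promoters of the subunits held a further motif more often than other promoters did. GGGCGG, the core bound by Sp factors, was found on either strand in 57.9% of the 38 entries and in 35.7% of all entries, while CCAAT was found in 36.8% and 37.4%. In KO against WT total RNA the 13 tested genes with CCGGAAG had a median log2 fold change of −0.0015 and the 21 without it −0.06.

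Across the 40 genes, the genotype difference in the polysome to subpolysome ratio gave Pearson's r = −0.41 and Spearman's rho = −0.46 with log coding length, against 0.00267 and −0.000501 over all genes tested. Without Psme4, Psmd1 and Psmd2 r was −0.49. None of the 40 differences passed the test, and the genes share their libraries and fit, so this is a description.

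The precursor of ribosomal RNA, Rn45s, took up to 5.59% of counts, in the third KO subpolysome library.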
